A study of Mus musculus with 4 samples.

Results

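Histones package DNA in the nucleus, and most of their genes are used only while DNA is copied. The 64 genes described here are mouse core histone genes (H2A, H2B, H3 and H4), mostly replication-dependent, and the linker histone genes H1f1 to H1f6. They were found by their symbols among the 22396 named genes of a ribosome profiling table, and include testis forms and the variant gene H2bc21. There were 6 H1, 17 H2A, 17 H2B, 12 H3 and 12 H4 genes. Of these, 53 lay on chromosome 13 and 10 on chromosome 3 in RefSeq's GRCm38.p6 annotation (mm10), and H2bc24 was not matched there. The study compared Ddx20 knockout (2 samples) with littermate controls (2 samples), each of about 1000 THY1-positive cells from the testis. DDX20 is a DEAD-box helicase of the SMN complex, and the study's title places its question in cell cycle re-entry of prospermatogonia. The sources used here do not give the strain, the age or the promoter or cell type behind the deletion. THY1 is carried by spermatogonia and by some somatic cells, so a THY1 sort is not a pure germ cell sample. Nothing states whether separate animals gave the samples of a group, so p-values measure only the spread between these samples, which may be technical.

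Core histones form the octamer around which DNA winds, with a pair each of H2A, H2B, H3 and H4, and H1 binds the linker DNA between octamers. Replication-dependent histone mRNAs end in a stem-loop in place of a poly(A) tail: the stem-loop binding protein SLBP holds it, the U7 small nuclear ribonucleoprotein guides the cut behind it, and SLBP then helps translation. In the male germ line several of these histones have testis forms, namely H1t (H1f6), TH2A (H2ac1) and TH2B (H2bc1), and most histones are later replaced by protamines.

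The authors' deposited table holds a mean level over the libraries, a log2 fold change with its standard error (SE), a p-value and an adjusted p-value for each gene, with no column per sample. Whole reads in 4 libraries, named C, D, A and B here, were worked out from the mean level, which is the average of 4 read counts each divided by a size factor. Libraries C and D made up the positive side of the fold change and libraries A and B the negative side. No label ties a library to a genotype, so "fell" means lower in C and D at an adjusted p under 0.05, "rose" means higher in C and D, and every direction would turn together with the sides. The reads on named genes numbered 282722 and 221439 in C and D, against 941014 and 789570 in A and B. The shallower C and D nevertheless covered 19374 and 19157 genes with at least 1 read, against 14405 and 14048. Over 10193 genes A differed from B by less than the sampling noise (chi-square test, p = 0.889), and the pair counts as 1 sample, so values are given per library without an SD, although the authors' test treated them as separate; C and D differed by more than the noise (p = 1.96e-11). Ddx20 itself had 42.6 and 50.8 normalised reads (reads divided by the authors' size factor) in C and D, against 167 and 173 in A and B. Its log2 fold change in the authors' deposited table was -1.83 (SE 0.24, adjusted p = 4.07e-13). Thy1 had 1 and 3 reads in C and D, against 18 and 15 in A and B, and did not pass (adjusted p = 0.156 in the authors' deposited table).

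Most histone genes were lower in C and D. Of the 64 members, 6 had no reads (H2bc23, H2bc24, H2ac23, H2ac24, H3c14 and H3c15), 2 had 1 read in all and were not tested by the authors (H2ac18 and H2ac19), and 56 were tested. In all, 31 of these fell, 2 rose and 23 did not pass by the authors' deposited table. Over all 17347 tested genes, 18.8% fell and 26.9% rose, 45.7% in either direction. The members' median log2 fold change was -1.01, against 0.38 over all tested genes. Both C and D lay below both A and B for 44 of the 56 members and above them for 7, whereas over all tested genes 30.8% lay below and 53.9% above. Set side by side by kind in the authors' deposited table, 24 of 48 core genes without a testis form fell and 2 rose (median -0.88). Of 5 somatic linker genes 4 fell and 0 rose (median -1.10), and 3 of 3 testis-specific genes fell (median -1.83). These kinds differ in level, with which the share of all genes that fell varied, as given below. The differences between the kinds were not tested. Libraries C and D overlapped A and B for H2bc4, H2bc7, H3c8, H3c11 and H4c18. Fewer cells of a type and fewer ribosome-bound histone mRNAs per cell cannot be told apart in such bulk samples, and without matched RNA the values do not separate mRNA level from translation.

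Across the whole table the fold change varied with level, and histone genes sit among the higher ones, so all tested genes were split by mean level into 4 bins of equal size. In the highest bin (27.3 normalised reads and above), 61.2% of all genes fell and 11.7% rose, with a median of -1.05. The 30 members in that bin had a median of -1.25, and 24 of them fell and 1 rose. Within it the median of all genes still dropped with level, from -0.49 to -1.58 across finer bins (20 over all tested genes). In the finer bin of highest level, with that median of -1.58, H1f1 (-2.08) lay below the median. H1f2 (-1.10), H1f3 (-1.23), H1f4 (-0.10), H2bc18 (-1.32), H4c3 (-1.27) and H4c4 (-1.07) lay above it. In the next bin 13.3% of all genes fell and 28.7% rose, and of 19 members 6 fell and 1 rose. Below that, 0.623% of all genes fell and 44.6% rose, and of 7 members 1 fell and 0 rose. From the highest of these bins down, C and D lay below A and B for 28, 12 and 4 members. The shares of all genes in these bins that lay below were 74.5%, 35.2% and 10.5%. No member lay in the lowest bin. All 5 somatic linker genes (median -1.10) lay in the highest bin, where the median of all genes was -1.05. Core genes lay in lower bins as well, so the kinds set side by side above do not share a level background. The 983 genes with a single read in all had fold changes in the authors' deposited table from -0.08 to 0.12 with an SE of about 1.01 to 1.02, and whether the authors shrank their fold changes is not stated.

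**Figure D1:**
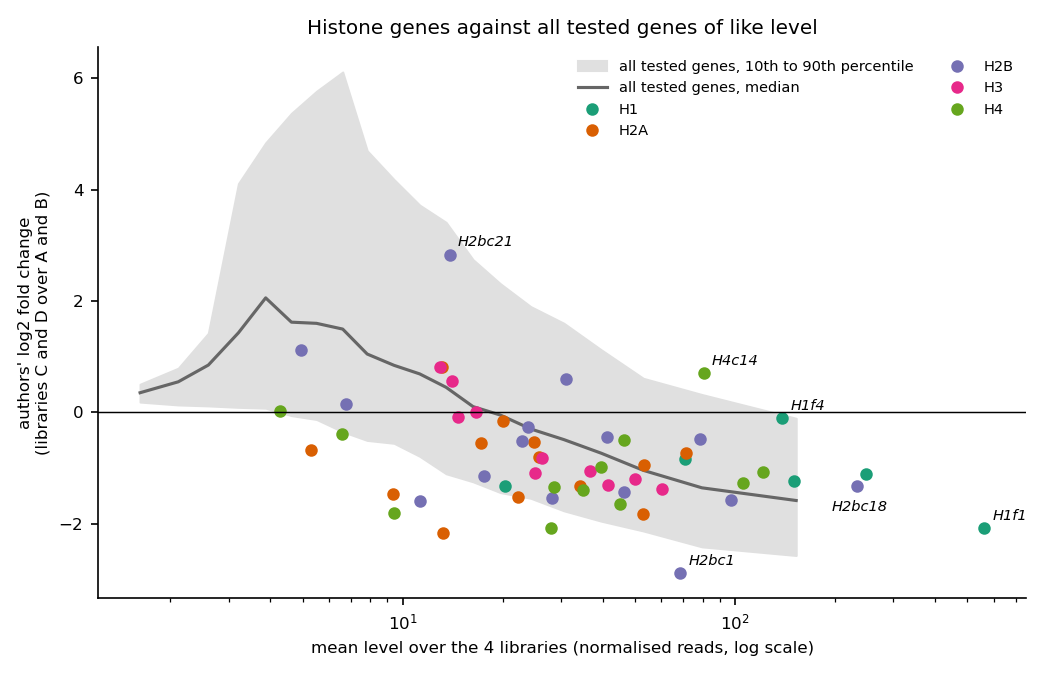
The authors' log2 fold change (vertical axis, libraries C and D over A and B) of the 56 tested histone genes against their mean level over the 4 libraries (normalised reads, log axis), coloured by class. The grey line is the median and the grey band the 10th to 90th percentile of all tested genes in 20 equal bins of level. Against the percentiles of their own bin, 8 members lie below, among them H2bc1 and H2ac10, and 2 above, H4c14 and, by a narrow margin, H1f4.

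Of the 6 linker histone genes 5 fell and 0 rose by the authors' deposited table, with H1f1 the lowest and a median of -1.17. The 5 somatic ones lay in the highest level bin, where 61.2% of all genes fell with a median of -1.05. H1f6 lay in the next bin, where 13.3% fell. Over all tested genes 18.8% fell. H1f1, which encodes H1.1, a linker histone abundant in thymus, spleen and testis, had 213 and 215 normalised reads in libraries C and D, against 860.5 and 960.25 in A and B. C and D lay close together and far from A and B, which count as 1 sample. The log2 fold change of H1f1 in the authors' deposited table was -2.08 (SE 0.13, adjusted p = 1.59e-51), and it held between -2.23 and -1.53 under every limma setting run. H1f2 had 181 and 129 normalised reads in C and D, against 321 and 361 in A and B, and fell (-1.10, SE 0.16, adjusted p = 2.34e-10 in the authors' deposited table). H1f3 had 101 and 74.5 in C and D, against 221 and 205 in A and B, and fell by 1.23 (authors' deposited table, adjusted p = 2.62e-09). H1f2 and H1f3 encode H1.2 and H1.3, somatic linker histones of dividing cells. H1f5, which encodes H1.5, also fell, with 61.3 and 37.2 normalised reads in C and D, against 89.6 and 95.5 in A and B (-0.84, SE 0.27, adjusted p = 0.00456 in the authors' deposited table), but not with limma on library totals.

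H1f4 stood apart from the other H1 genes; it is named after its values were seen, as the sole H1 gene that did not pass. This gene for H1.4, a widespread somatic linker histone, had 139.9 and 127 normalised reads in C and D, against 144 and 144 in A and B. All 4 libraries were within a narrow range, although C and D were both just lower. Its log2 fold change in the authors' deposited table was -0.10 (SE 0.18, adjusted p = 0.645). Scaled to library totals, under which the median of all genes moved up by 0.55, limma gave 0.46 for H1f4, past its threshold.

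Shares within the H1 genes do not depend on the scaling between libraries. H1f1 took 30.1% and 36.3% of the reads on H1 genes in C and D (Wilson 95% intervals 26.4 to 34.2 and 31.4 to 41.5), against 51.7% and 53.4% in A and B (49.9 to 53.5 and 51.5 to 55.3). H1f4 took 19.8% and 21.4% in C and D (16.6 to 23.4 and 17.4 to 26.0), against 8.64% and 8.02% in A and B (7.66 to 9.72 and 7.03 to 9.14). Neither gene's intervals overlapped between the pairs. The shares of H1f2 (25.6% and 21.7% in C and D, against 19.3% and 20.1% in A and B) and H1f3 (14.3% and 12.6%, against 13.3% and 11.4%) lay closer together. Such intervals and limits cover counting error alone, since PCR reads without molecular identifiers are not independent molecules. In RPKM over the annotated gene span, which allows levels of genes to be compared, H1f1 stood at 759.63 and 769.83 in C and D, against 2109.7 and 2308.6 in A and B. It had the highest level of the members with a span up to 1000 bases in D, A and B, and H2bc18 had it in C, at 775.

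The upstream sequences of the 6 H1 genes are shown because H1f1 and H1f4 differ in how their reads moved while lying in the same cluster. Each is the 130 bases before the annotated start in RefSeq's GRCm38.p6 (mm10) table, read on the gene's own strand, with capitals for matches on either strand to the TATA box (TATAAA), the CCAAT box (CCAAT), the octamer (ATTTGCAT) and the H1 box (AAACACA). A match is a string of letters and not evidence of a bound factor.
H1f1, chr13:23763538-23763667, plus strand, fell: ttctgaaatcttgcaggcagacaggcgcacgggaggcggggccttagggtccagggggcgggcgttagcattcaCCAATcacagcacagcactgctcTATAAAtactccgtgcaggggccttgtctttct
H1f2, chr13:23738677-23738806, plus strand, fell: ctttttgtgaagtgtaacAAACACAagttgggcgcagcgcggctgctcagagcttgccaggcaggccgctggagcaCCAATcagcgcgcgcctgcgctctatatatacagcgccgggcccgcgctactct
H1f3, chr13:23554902-23555031, plus strand, fell: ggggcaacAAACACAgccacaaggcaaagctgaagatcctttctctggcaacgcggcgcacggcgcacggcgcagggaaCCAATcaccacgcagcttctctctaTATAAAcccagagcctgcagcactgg
H1f4, chr13:23622559-23622688, minus strand, did not pass: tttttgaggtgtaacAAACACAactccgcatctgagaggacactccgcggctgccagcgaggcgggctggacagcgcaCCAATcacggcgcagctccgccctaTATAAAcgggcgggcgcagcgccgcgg
H1f5, chr13:21780626-21780755, minus strand, fell: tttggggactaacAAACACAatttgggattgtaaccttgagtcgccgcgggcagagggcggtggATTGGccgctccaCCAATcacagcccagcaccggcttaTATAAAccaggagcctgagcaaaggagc
H1f6, chr13:23695681-23695810, plus strand, fell: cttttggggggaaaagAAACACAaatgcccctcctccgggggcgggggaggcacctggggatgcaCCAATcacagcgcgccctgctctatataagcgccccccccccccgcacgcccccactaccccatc
All 6 H1 genes held the CCAAT box, and H1f1 was the one without an H1 box in the 250 bases searched, while H1f4 and the other 4 held it. Over all 32851 promoters of the RefSeq table, 6.25% held the H1 box and 33.8% the CCAAT box.

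**Figure D2:**
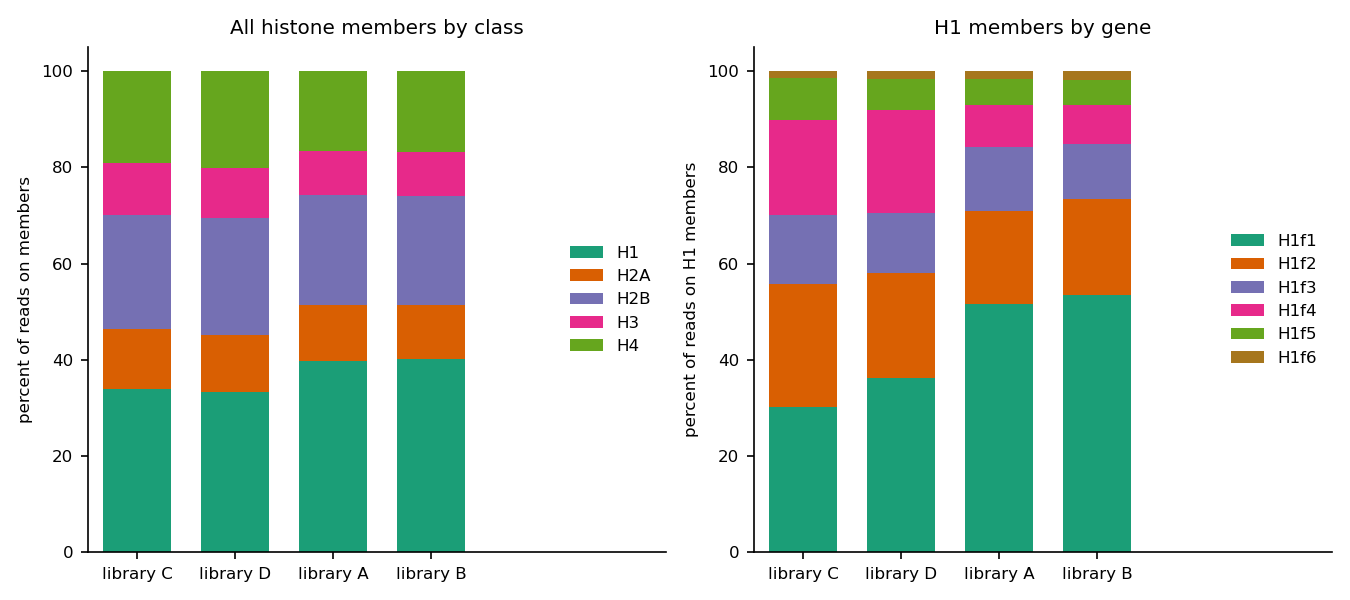
Left, percent of the reads on all histone members taken by each class in libraries C, D, A and B. Right, percent of the reads on H1 genes taken by each of H1f1 to H1f6; H1f1 fills 30.1% and 36.3% of the bar in C and D, against 51.7% and 53.4% in A and B.

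All 3 testis-specific genes fell. H2bc1, which encodes TH2B, the testis form of H2B that replaces much of the somatic H2B during spermatogenesis, had 18.7 and 11.8 normalised reads in C and D (14 and 7 reads), against 125 and 119 in A and B (214 and 168 reads). The pairs were far from overlapping. Its log2 fold change of -2.89 (SE 0.37, adjusted p = 6.21e-14) was the lowest of the tested members in the authors' deposited table. H2ac1, the TH2A gene, had 24.0 and 20.3 normalised reads in C and D, against 87.3 and 80.6 in A and B, with a log2 fold change of -1.83 in the authors' deposited table (SE 0.35, adjusted p = 5.28e-07). H1f6, the gene of the testis linker histone H1t, had 8 and 6 reads in C and D, against 49 and 45 in A and B, and a log2 fold change of -1.32 in the authors' deposited table (SE 0.54, adjusted p = 0.0167), so it did not pass at an adjusted p of 0.01. The 3 genes together took 2.56% and 2.38% of the reads on members in C and D (1.89 to 3.47 and 1.61 to 3.49), against 5.75% and 5.17% in A and B (5.24 to 6.32 and 4.65 to 5.75). H2bc1 took 3.78% and 2.75% of the H2B reads in C and D, against 12.98% and 11.7% in A and B. Germ cell markers were lower as well: the authors' deposited table has 10 of 12 lower at the threshold and 0 higher. Over all tested genes 18.8% fell, and 61.2% did in the highest level bin, which held 10 of the 12. The markers' summed share of library reads was 0.109% and 0.111% in C and D, against 0.516% and 0.547% in A and B, with Nanos2 at 0 in D. Their part in the result was not tested.

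H2bc1 and H2ac1 face away from each other on chromosome 13 with 280 bases between their annotated starts, so the 250-base windows searched for motifs overlap, while the 130 bases printed for each gene share no base. The sequences are shown because both genes fell and have neighbouring starts; both spans overlap the predicted gene Gm33516, and how the authors assigned reads there is not stated.
H2bc1, chr13:23934157-23934286, minus strand, fell: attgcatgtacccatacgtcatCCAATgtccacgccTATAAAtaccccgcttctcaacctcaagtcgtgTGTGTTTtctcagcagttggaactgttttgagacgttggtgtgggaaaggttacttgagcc
H2ac1, chr13:23934307-23934436, plus strand, fell: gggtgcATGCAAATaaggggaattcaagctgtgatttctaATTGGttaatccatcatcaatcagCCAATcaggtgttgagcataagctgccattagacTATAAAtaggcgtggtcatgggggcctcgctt
Among the 58 members with a strand and upstream sequence in that RefSeq table, 9 such head-to-head pairs of an H2A and an H2B gene lay within 500 bases, 163 to 280 bases apart, and the 9 found were on chromosome 13. The members without a strand there, which include H2bc4, H2bc21 and H2bc24, were not searched for a partner. Both partners were tested in 8 pairs. By the authors' deposited table both partners fell in 3 pairs (H2bc13 with H2ac13, H2ac12 with H2bc12, H2bc1 with H2ac1), 1 partner fell in 3 pairs and neither in 2 pairs.

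**Figure D3:**
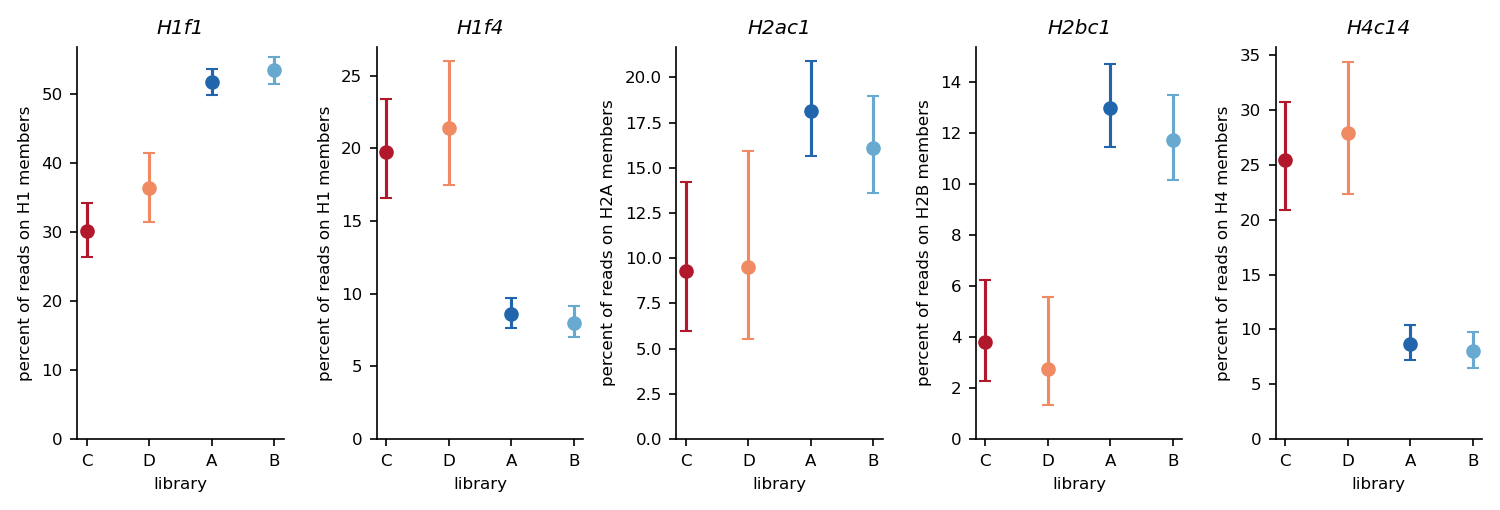
Share of 5 genes in the reads of their own class (percent, axis from 0) in libraries C, D, A and B, with Wilson 95% intervals. H1f1, H2ac1 and H2bc1 hold smaller shares in C and D, and H1f4 and H4c14 larger ones.

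Tested H2A genes were mostly lower in C and D, with few reads each. The authors' deposited table has 6 of 13 that fell and 0 that rose, with a median of -0.81 over the 13. Over all tested genes 18.8% fell and 26.9% rose. The H2A genes lay in the highest level bin, where 61.2% of all genes fell, and in lower ones, where 13.3% and 0.623% did. H2ac4 had the highest mean level among them, with 57.3 and 47.4 normalised reads in C and D, against 84.9 and 95.5 in A and B, and fell by 0.73 (authors' deposited table, adjusted p = 0.0111). H2ac10 had 2 and 3 reads in C and D, against 36 and 34 in A and B, and a log2 fold change of -2.16 in the authors' deposited table (SE 0.82, adjusted p = 0.00625). With limma without library C its value was -1.93 and no longer passed. H2ac12 (-1.51), H2ac13 (-1.32) and H2ac15 (-0.94) also fell in the authors' deposited table. H2ac4 and H2ac15 did not pass with limma on library totals. The 7 that did not pass were H2ac6, H2ac7, H2ac8, H2ac11, H2ac20, H2ac21 and H2ac22, named to account for all members. With limma and TMM scaling, 10 of the 13 fell and 1 rose.

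H2B genes held both the deepest fall and the largest rise. Among 15 tested H2B genes 7 fell and 1 rose by the authors' deposited table, with a median of -0.51 over the 15. Of all tested genes 18.8% fell and 26.9% rose. The H2B genes lay in the same level bins as the H2A genes, where 61.2%, 13.3% and 0.623% of all genes fell. H2bc18 on chromosome 3, the H2B gene with the highest RPKM over its span in every library, had 144 and 118 normalised reads in C and D, against 320 and 347 in A and B. Both values in C and D lay below both in A and B, with a log2 fold change of -1.32 in the authors' deposited table (SE 0.17, adjusted p = 2.39e-14). H2bc3 had 44.0 and 52.5 normalised reads in C and D, against 143 and 149.9 in A and B, and fell by 1.57 (authors' deposited table, adjusted p = 1.17e-09). H2bc11 fell as well, with 21.3 and 27.1 in C and D, against 65.7 and 70.7 in A and B (-1.42, adjusted p = 0.000154 in the authors' deposited table). Besides H2bc1, the other genes that fell were H2bc12, H2bc13 and H2bc22. H2bc13 did not pass with limma on library totals or without library C (-1.01), and H2bc22 did not without library C (-2.13) or without library D (-1.63). H2bc4, H2bc6, H2bc7, H2bc8, H2bc9, H2bc14 and H2bc15 did not pass. H2bc18 and H2bc3 each hold the octamer, a binding site of OCT factors known from H2B promoters, and their upstream sequences are shown for it.
H2bc3, chr13:23746604-23746733, plus strand, fell: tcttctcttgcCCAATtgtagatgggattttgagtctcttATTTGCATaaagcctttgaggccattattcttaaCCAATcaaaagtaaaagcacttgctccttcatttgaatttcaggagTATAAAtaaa
H2bc18, chr3:96269570-96269699, plus strand, fell: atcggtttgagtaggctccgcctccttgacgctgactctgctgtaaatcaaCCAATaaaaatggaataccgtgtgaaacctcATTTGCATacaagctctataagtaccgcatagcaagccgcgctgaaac

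H2bc21 was the H2B gene that rose. It encodes an H2B variant known in the mouse from olfactory sensory neurons. It had 17 and 16 reads in C and D, against 6 and 3 in A and B, which is 22.7 and 27.1 normalised reads, against 3.49 and 2.12. The log2 fold change in the authors' deposited table was 2.83 (SE 0.73, adjusted p = 0.00011), the highest of the members. In its level bin 28.7% of all genes rose and 13.3% fell. Its value lay inside the percentile band of all genes in its finer bin of level (-1.1 to 3.41). H2bc21 took 4.60% and 6.28% of the H2B reads in C and D (2.89 to 7.23 and 3.90 to 9.95), against 0.364% and 0.209% in A and B (0.167 to 0.792 and 0.0712 to 0.614). Olfactory and vomeronasal receptor genes took 0.806% and 0.899% of all reads in C and D, against 0.00457% and 0.00469% in A and B. Their part in the result was not tested. The annotated span of H2bc21 is 2667 bases, against 493 for H2bc18, and the table does not show where along the span the reads lie.

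H3 genes encode the same protein or nearly so, as do H4 genes, so each gene adds to a common supply. By the authors' deposited table, 5 of 10 tested H3 genes fell and 0 rose (median -0.93). They lay in the highest level bin and the next, where 61.2% and 13.3% of all genes fell. Over all tested genes 18.8% fell and 26.9% rose. H3c1 had 34.7 and 30.5 normalised reads in C and D, against 84.9 and 91.9 in A and B, and fell by 1.37 (authors' deposited table, adjusted p = 2.38e-05). H3c2 had 26.7 and 18.6 in C and D, against 55.3 and 65.8 in A and B, and H3c3 had 26.7 and 32.15, against 68.1 and 72.8. Both fell (-1.30 and -1.195 in the authors' deposited table), as did H3c4 (-1.09) and H3c10 (-1.04), which did not pass with limma on library totals. In the authors' deposited table only 3 H3 genes fell at an adjusted p of 0.01. H3c6, H3c7, H3c8, H3c11 and H3c13 did not pass.

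The authors' deposited table has 8 of 12 tested H4 genes that fell and 1 that rose, with a median of -1.17 over the 12. Over all tested genes 18.8% fell and 26.9% rose. Most of the 12 lay in the highest level bin, where 61.2% of all genes fell and 11.7% rose. The others lay where 0.623% of all genes fell and 44.6% rose. H4c4 had 88.0 and 65.99 normalised reads in C and D, against 155 and 178 in A and B, and H4c3 had 68.0 and 52.5, against 153 and 148. Both fell, by 1.07 and 1.27 in the authors' deposited table. H4c12 had 10.7 and 8.46 in C and D, against 40.7 and 51.6 in A and B, and the largest H4 change, -2.08 (SE 0.52, adjusted p = 0.000115 in the authors' deposited table). H4c1 (-1.64) and H4c2 (-1.39) fell likewise in the authors' deposited table, and so did H4c6, H4c11 and H4c17, whereas H4c8, H4c9 and H4c18 did not pass. H4c6 did not pass with limma on library totals, and H4c17 did not with limma without library C (-1.90) or without library D (-2.25).

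H4c14 went the other way from the 8 H4 genes that fell. It had 101 and 99.8 normalised reads in C and D, against 60.5 and 60.1 in A and B, without overlap. It rose in the authors' deposited table by 0.71 (SE 0.23, adjusted p = 0.00575) and with limma in every setting run, from 0.59 to 1.30. H4c14 took 25.5% and 28.0% of the H4 reads in C and D (20.9 to 30.7 and 22.3 to 34.4), against 8.70% and 7.996% in A and B (7.23 to 10.4 and 6.51 to 9.78). In RPKM over its span it stood at 700.04 and 694 in C and D, against 288 and 280.35 in A and B.

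**Figure D4:**
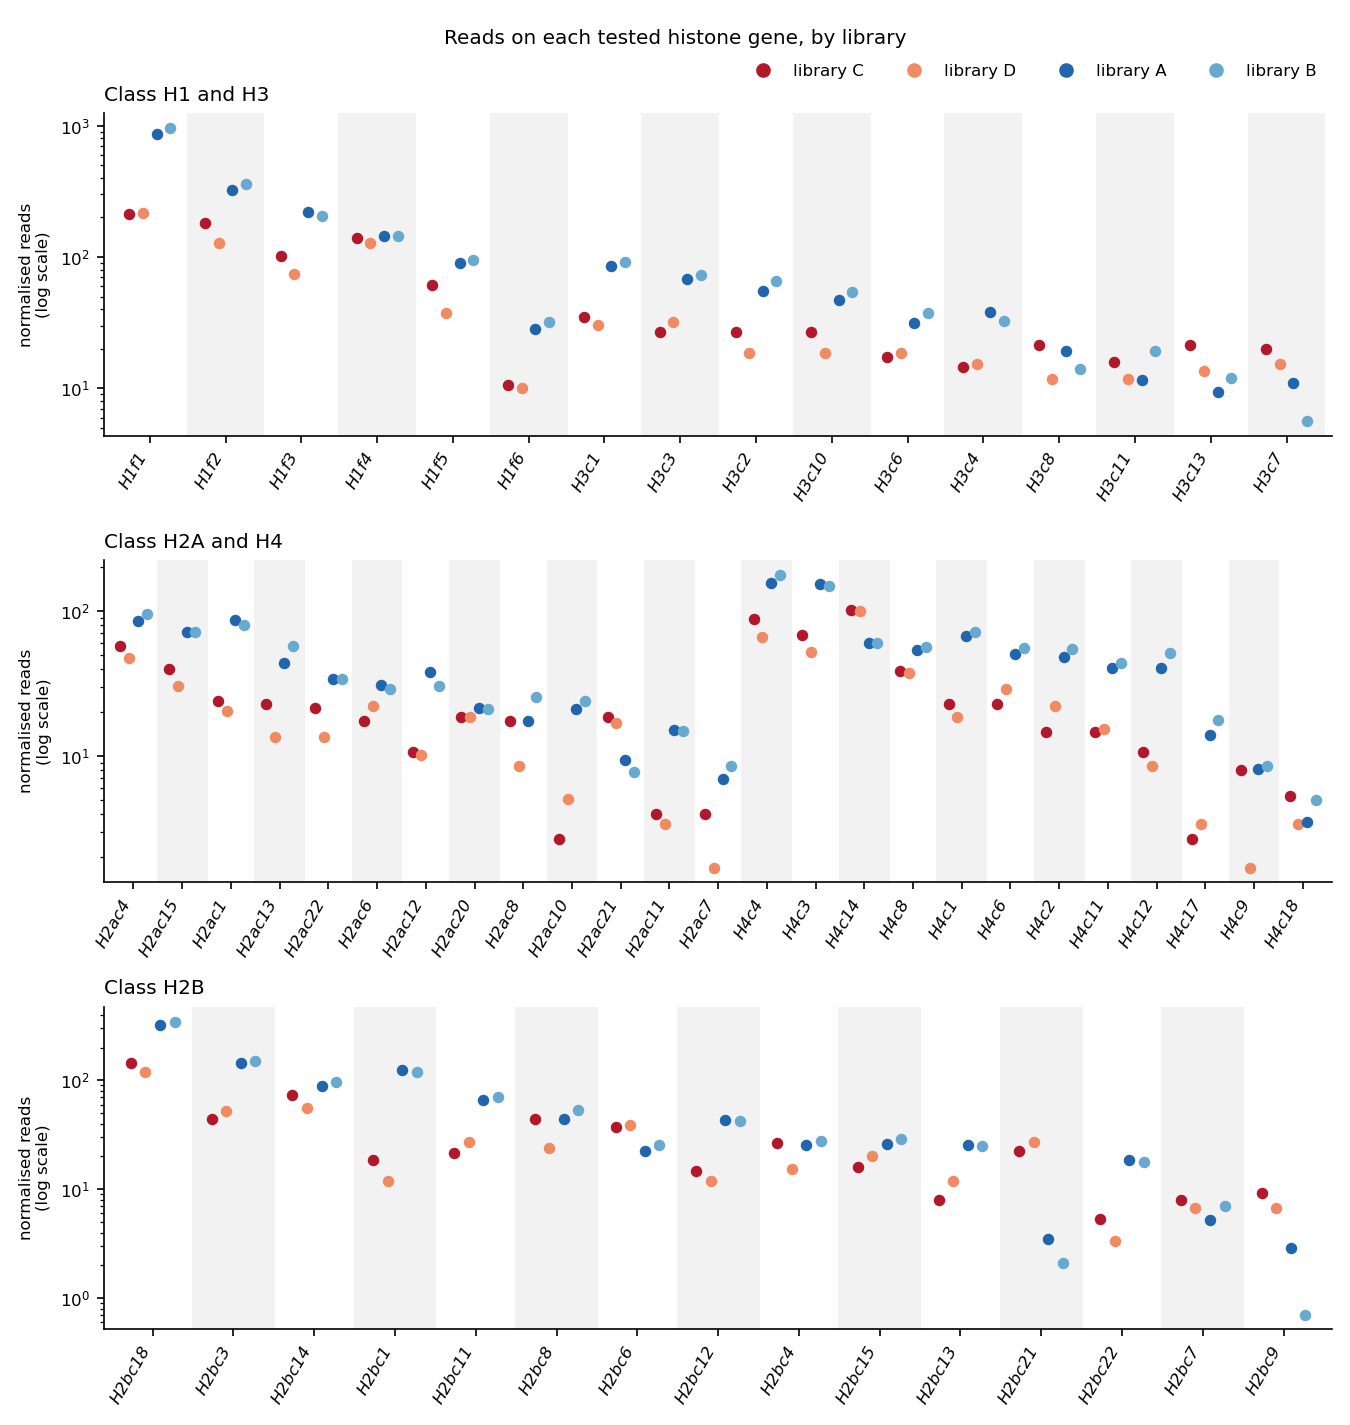
Normalised reads (log axis) of each of the 56 tested histone genes in libraries C, D, A and B, from left to right within each gene; genes are ordered by mean level within their class. C and D lie below A and B for 44 genes and above for 7, among them H4c14 and H2bc21. Over all tested genes 30.8% lie below and 53.9% above, and in the highest level bin 74.5% lie below.

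Both genes that rose lie in the smaller cluster on chromosome 3. By the authors' deposited table, 1 of the 6 tested genes there fell and 2 rose (median 0.63), and 30 of the 50 on chromosome 13 fell and 0 rose (median -1.08). The clusters differ in level. H2ac20, H2ac21, H2bc21 and H3c13 lay in the second-highest level bin, where 28.7% of all genes rose and 13.3% fell. Many chromosome 13 genes, and H2bc18 and H4c14, lay in the highest bin, where 61.2% fell and 11.7% rose. The part of level in this contrast was not tested. The other 3 tested genes on chromosome 3, named after their values were seen, were H2ac20 (-0.16), H2ac21 (0.82) and H3c13 (0.56), for which the authors' deposited table has adjusted p-values above the threshold. The chromosome 3 genes took 15.7% and 16.6% of the reads on members in C and D (13.97 to 17.6 and 14.5 to 19.01), against 10.2% and 10.1% in A and B (9.48 to 10.9 and 9.37 to 10.9). The members without reads or with 1 read include near-copies on chromosome 3: H2ac18 and H2ac19 share a run of 219 bases, and H3c14 and H3c15 one of 231, within windows of 300 bases around their starts. How the authors treated fragments that match several genes is not stated, so values of single core histone genes are uncertain where the genes share sequence.

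Of all reads, histone members held a smaller share in C and D. They took 0.553% and 0.475% of library reads in C and D (0.526 to 0.58 and 0.447 to 0.505), against 0.763% and 0.801% in A and B (0.745 to 0.781 and 0.781 to 0.821). Within the pool the H1 genes took 34.0% and 33.3% in C and D (31.7 to 36.4 and 30.5 to 36.2), against 39.9% and 40.2% in A and B (38.7 to 41.0 and 39.0 to 41.5). Without H1f1, the other H1 genes took 23.8% and 21.2% of the pool in C and D, against 19.2% and 18.7% in A and B, and H1f1 alone took 10.2% and 12.1%, against 20.6% and 21.5%. H4 genes took 19.1% and 20.1% in C and D, against 16.7% and 16.8% in A and B. H4c14 alone took 4.87% and 5.61% of the pool, against 1.45% and 1.345%, and the other H4 genes together took no larger share in C and D. H2A (12.4% and 11.98%, against 11.5% and 11.2%), H2B (23.7% and 24.2%, against 23.0% and 22.7%) and H3 (10.8% and 10.5%, against 9.001% and 9.08%) lay closer together. With 2 libraries a side, an exact permutation test cannot give a p below 0.333, so shares carry no p.

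**Figure D5:**
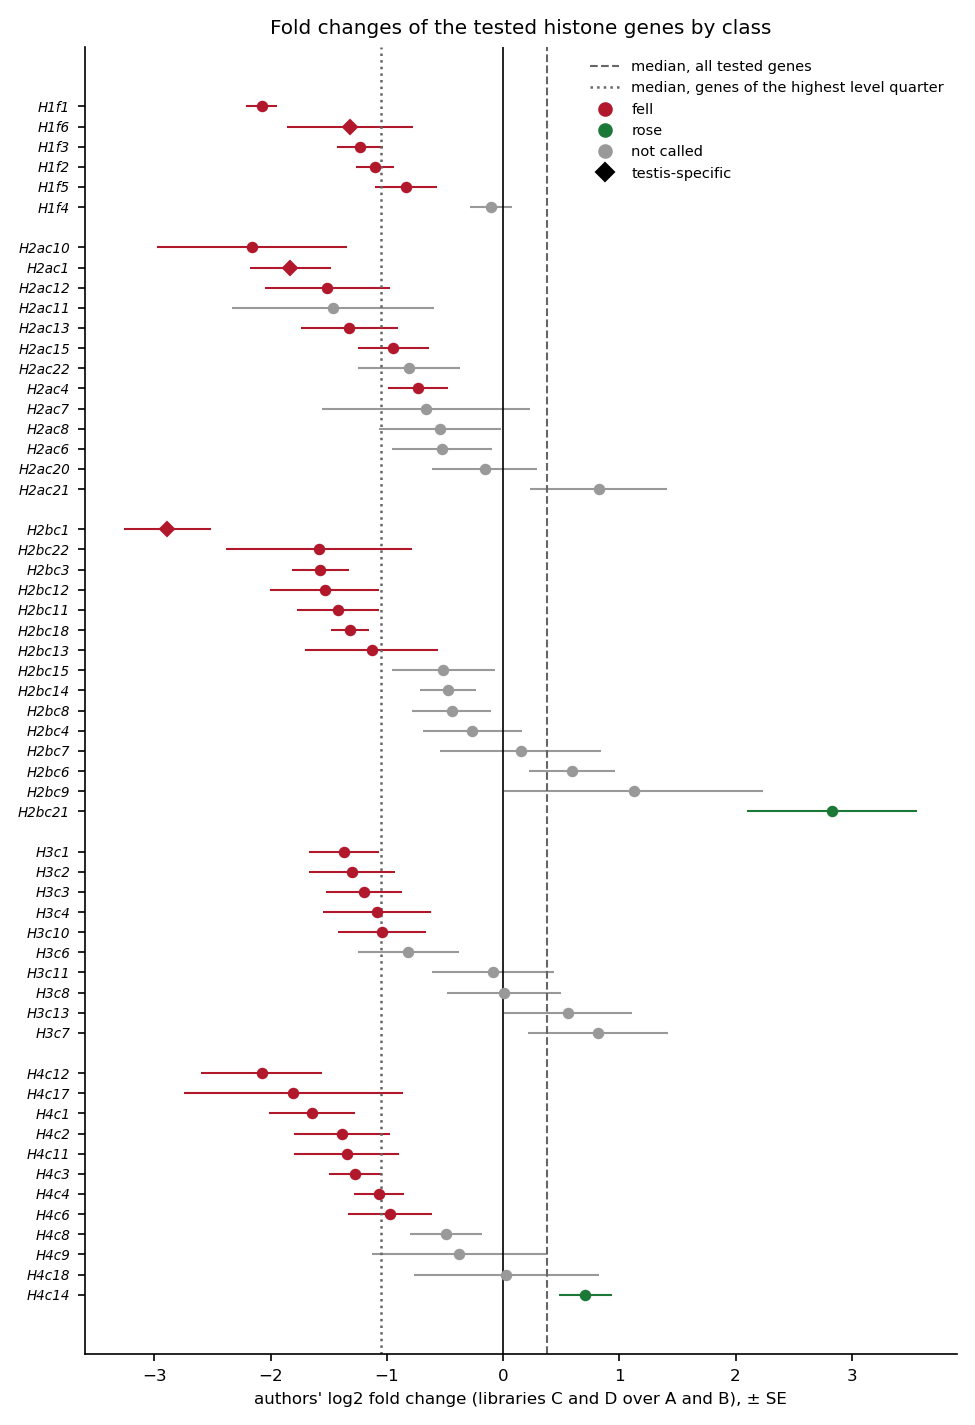
The authors' log2 fold change (libraries C and D over A and B) ± SE of the 56 tested histone genes by class, in order of value; red genes fell, green rose and grey did not pass. The dashed line is the median of all tested genes (0.38) and the dotted line that of the highest level bin (-1.05); diamonds are testis-specific genes.

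On the upstream sequences, motifs were counted in the 250 bases before the start of the 58 members with an upstream sequence in RefSeq's promoter table. The octamer was found in 6 of 17 H2A and 6 of 14 H2B promoters and in no H1, H3 or H4 promoter, against 1.6% of all promoters; the windows of H2A and H2B partners of a head-to-head pair overlap, so these counts do too. The TATA box stood in 48.3% of members and 12.4% of all promoters, and the CCAAT box in 82.8% of members, against 33.8%. Among the 30 members with a promoter that fell and the 21 that did not pass, the octamer was found in 23.3% and 23.8%, the TATA box in 53.3% and 57.1%, and the CCAAT box in 83.3% and 85.7%. The H1 box was found in 7 of the 30 that fell (23.3%) and 2 of the 21 that did not pass (9.52%). The 7 include the H1 genes H1f2, H1f3, H1f5 and H1f6, of a class in which 83.3% of promoters held it. They also include H2bc1 and H2ac1, whose overlapping windows hold the same site, so it is counted for both. The 58 do not include H4c14 or H2bc21.

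With limma on the recovered reads and the authors' size factors, 35 of the 56 members fell and 6 rose, where 28.8% of 14470 genes fell and 40.9% rose. The 4 that rose here and not in the authors' deposited table were H2ac21, H2bc6, H2bc9 and H3c7, named after their values were seen. With A and B summed into 1 library 34 fell and 5 rose. Scaled to library totals the split was 25 that fell and 8 that rose. Relative to the median of all genes, the members' median was -1.45 with both scalings. A change of scaling moves all genes nearly alike, so this difference could hardly change and is no check of the result.

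Genes linked to histone mRNAs and proteins were read from lists. The first held 24 genes of histone transcription and 3′ end processing, not all of them particular to histone mRNAs. The authors' deposited table has lower values past the threshold for 15 of the 24 and higher ones for 2, with a median of -1.07. Over all tested genes 18.8% fell and 26.9% rose with a median of 0.38, and 61.2% fell in the highest level bin, which held 17 of the 24 and where the median was -1.05. These backgrounds apply to each list that follows. Slbp, the stem-loop binding protein, had 49.3 and 25.4 normalised reads in C and D, against 252 and 276 in A and B, and fell by 2.73 (authors' deposited table, SE 0.34, adjusted p = 3.48e-15). The cleavage endonuclease gene Cpsf3 had 52.0 and 52.5 in C and D, against 268 and 254 in A and B (-2.29, adjusted p = 6.44e-24 in the authors' deposited table). Fip1l1 (-2.11), the cap-binding Ncbp1 (-1.75) and Upf1 (-1.29), which acts in histone mRNA decay, fell too in the authors' deposited table. Named after their values were seen, Lsm10 and Lsm11, the proteins particular to the U7 particle, had 4 and 8, and 10 and 10 reads in C and D, against 25 and 10, and 13 and 16 in A and B, and did not pass (adjusted p = 0.809 and 0.384 in the authors' deposited table). Of the 7 that did not pass, Sympk had 65.3 and 71.1 normalised reads in C and D, against 62.3 and 77.8 in A and B. Its log2 fold change was -0.03 in the authors' deposited table, and it too was named afterwards. The 2 that rose, also named afterwards, were the uridylyltransferase gene Tut7 (1.48) and Ctif (1.93) in the authors' deposited table.

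Variant histone genes outside the members were mostly lower in C and D as well. By the authors' deposited table, 7 of 12 tested genes fell and 1 rose (median -0.90), and 8 of the 12 lay in the highest level bin. H2ax, whose protein is phosphorylated at DNA breaks, had 112 and 115 normalised reads in C and D, against 275 and 315 in A and B, and fell by 1.36 (authors' deposited table, adjusted p = 1.21e-13). The centromeric histone gene Cenpa (-1.49), Macroh2a1 (-1.20) and the H3.3 gene H3f3b (-1.53) fell as well in the authors' deposited table. H2aj, an H2A variant gene, rose with 33 and 27 reads in C and D, against 21 and 14 in A and B (1.88, SE 0.44, adjusted p = 3.06e-05 in the authors' deposited table).

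The authors' deposited table has 20 of 27 histone chaperone and carrier genes that fell and 1 that rose, at a median of -1.42, and 22 of the 27 lay in the highest level bin. Nasp, which binds free H1 and H3 with H4, had 67 and 59 reads in C and D, against 1582 and 1409 in A and B (-3.33 in the authors' deposited table). Hat1, the acetyltransferase of new H4, had 34 and 21, against 773 and 657 (-3.46 in the authors' deposited table). Supt16 (-2.67), Nap1l4 (-2.69) and Rbbp7 (-2.47) followed in the authors' deposited table. The 1 gene that rose, named afterwards, was Npm2, with 6 and 5 reads in C and D and 0 in A and B. Among S-phase regulators the authors' deposited table has 9 of 16 that fell and 2 that rose, at a median of -1.01; 10 of the 16 lay in the highest level bin. Those that fell were led by the replicative helicase genes Mcm3 (-2.43), Mcm7 (-2.04) and Mcm5 (-1.57), the sliding clamp gene Pcna (-1.89) and Cdc25a (-1.69). E2f8 (1.28) and E2f2 (2.05), named afterwards, were the 2 that rose.

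Markers of other cell types were set beside these counts. Of the 12 germ cell markers above, 10 lay in the highest level bin, and of these other markers at most 4 of a list. Of 10 Sertoli cell markers, 3 fell and 1 rose by the authors' deposited table, with a summed share of 0.0294% and 0.0375% of reads in C and D, against 0.0443% and 0.0431% in A and B. Leydig and peritubular markers (2 fell and 2 rose of 9) took 0.0697% and 0.079% in C and D, against 0.0512% and 0.05% in A and B. Endothelial, blood and macrophage markers (1 fell and 2 rose of 8) took 0.0478% and 0.051%, against 0.0255% and 0.0238%, and the haemoglobin genes Hba-a1 and Hbb-bs were at 0 in 3 of the 4 libraries each. Spermatid markers (0 fell and 2 rose of 5) took 0.00778% and 0.00587%, against 0.00085% and 0.000507%, and Prm1, Prm2, Tssk6 and Acrv1 were at 0 in A and B. The part of these cells in the histone values was not tested.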

How the data were processed

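Ribosome-protected fragments of 26 to 34 nucleotides were isolated from about 1000 cells a sample and made into libraries with a small RNA kit, per the labels' protocols. Trimmomatic 0.39, STAR 2.7.5c, StringTie 2.1.7, DESeq2, edgeR and the build mm10 are named per the submitters' processing notes; the sources used here give neither their roles nor the annotation and counting rule. Per the file headers, the deposited table gives a mean level (a signal over libraries), a log2 fold change with its SE, a p-value and an adjusted p-value. The direction of the log2 fold change is unstated in the deposited table.

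Mean levels were solved for whole reads in 4 libraries: 20512 of 20515 rows with reads had 1 solution, and 0 of 497 altered means had any. The row without a gene name held 0.00475% of the summed means and was left out. The main result is the authors' comparison; limma 3.58.1 (voom, genes with at least 10 reads, Benjamini-Hochberg over all) was run on the recovered reads in R 4.3.3 after a test on simulated data. RPKM were computed from the recovered reads, gene span and library total. Shares have Wilson 95% intervals. Genes were named by rule: in each class up to 5 tested members with the smallest deposited p, the 2 with the highest mean, those that rose and the testis-specific ones; in each list the 5 with the smallest p. Members and lists were chosen with earlier results of these data known. RefSeq GRCm38.p6 tables gave positions for 63 members and upstream sequences for 58. Alternatives were other scalings, read minimums, thresholds and left-out libraries.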

Additional observations from a re-analysis of the deposited data

How the results depend on the processing

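No paired analysis was possible because the table has no column per sample and the recovered libraries carry no replicate number. The count of members that fell stayed between 23 and 40 in all settings, against 31 in the authors' deposited table. The count that rose, 2 in that table, was 6 with limma under the authors', median-of-ratios and upper-quartile factors, 5 with TMM, 8 with library totals, 7 with all genes that have a read, 4 with at least 50 reads, 5 with A and B summed, and 3 to 7 with a library left out (4 without A, 7 without D). A side left with 1 library, also where A and B were summed, was assumed to vary like the other side. By class, the number that rose with limma was 1 in H2A (2 with all genes that have a read, 0 to 1 with a library left out), 3 in H2B (2 with TMM and with A and B summed, 1 with at least 50 reads, 2 to 3 with a library left out), 1 in H3 (2 with library totals, 0 to 2 with a library left out) and 1 in H1 with library totals. H2A genes that fell numbered 10 with TMM, H3 genes that fell 3 at an adjusted p of 0.01 and with library totals, and chaperones that rose 2 with limma. The members' median was -0.54 with library totals and otherwise -1.25 to -0.90; library totals moved the median of all genes up by 0.55 and TMM by -0.15. H1f4 turned to 0.46 with library totals. The cause of these moves was not tested. Members that lost their call with library totals were H1f5 (-0.34), H2ac15 (-0.43), H2ac4 (-0.20), H2bc13 (-0.76), H3c10 (-0.55), H3c4 (-0.63) and H4c6 (-0.48). Without library C the call was lost for H2ac10 (-1.93), H2bc13 (-1.01), H2bc22 (-2.13) and H4c17 (-1.90), and without library D for H2bc22 (-1.63) and H4c17 (-2.25). At an adjusted p of 0.01 8 members of the authors' deposited table no longer passed: H1f6, H2ac4, H2bc13, H2bc22, H3c4, H3c10, H4c6 and H4c17. Leaving out receptor and mitochondrial genes from the total moved no share of the members beyond its interval. Composition without members that share a protein was not run. Depth limits low members such as H2ac10, with 2 and 3 reads in C and D.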
